A study of Mus musculus with 6 samples.

Results

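Potassium channel genes known from astrocytes and pericytes were examined in the cells of mouse amygdala that carry the surface antigen ACSA2. There were 10 members of 32285 genes counted, chosen by name: Kcnj10, Kcnj16, Kcnj8, Abcc9, Kcnk1, Kcnk2, Kcnma1, Kcnmb1, Kcnq3 and Kcnn2. They were read in 3 cell classes set by other genes. Astrocytes had at least 20 UMIs (unique molecular identifiers, each counting 1 captured RNA molecule) of the glutamate transporters Slc1a2 and Slc1a3 and at most 3 of the mural genes Vtn and Rgs5. Pericytes had at least 10 UMIs of Vtn and Rgs5, at most 5 of Slc1a2 and Slc1a3 and under 5 of Acta2, the actin of smooth muscle. Cells with at least 5 Acta2 UMIs formed the remaining class. Of 13546 cell barcodes, 8757 were astrocytes, 2240 pericytes and 22 Acta2 cells, and 2527 fell in no class.

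The single-cell RNA sequencing covered 16 listed mice, male young adult wild-type C57BL/6N, in 3 libraries. Each library was a pool of ACSA2-sorted cells of several mice that had been marked per mouse with hashtag antibodies. Some cells carried tags with no mouse listed for their library, and the counts per library and class include them. Groups of 4 mice were never shocked (NoFC) or were fear conditioned (FC). Further such groups were conditioned, then left in the home cage without recall (NoFR) or returned to the context a day later for recall (FR). The amygdala was taken 90 min after behaviour. By the paper's account, FC was sampled 90 min after conditioning and NoFR about a day after it. All cells of all groups were dissociated with papain in the presence of inhibitors of transcription and translation. The 4 groups were spread unevenly, with 2 mice of each in library 1, mice of NoFC, FC and FR in library 2, and mice of NoFC, NoFR and FR in library 3.

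Astrocytes clear potassium that firing neurons release, and they do so largely through inwardly rectifying channels. Kcnj10 encodes the main glial inward rectifier and Kcnj16 a subunit that assembles with it. Pericytes, the contractile cells on brain capillaries, carry ATP-sensitive channels instead, built from the pore subunit Kcnj8 and the sulfonylurea receptor Abcc9, and these channels open or close with the metabolic state of the cell. Kcnk1 and Kcnk2 encode background (leak) channels with tandem pore domains, Kcnma1 the pore of the large-conductance channel opened by calcium and voltage, Kcnmb1 its regulatory subunit known from smooth muscle, Kcnn2 a small-conductance calcium-activated channel, and Kcnq3 a subunit of the slow voltage-gated M-type channel.

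The classes fitted their names by markers not used to set them. The astrocyte list (10 genes such as Aqp4, Gja1 and Aldoc) summed to 9006 to 9162 CPM (UMIs scaled to the same total in each library and class) in astrocytes and 846 to 929 in pericytes, where Gfap was at 0 in every library. Most of that remainder was Atp1b2, the gene of the sorted antigen itself, whose level in pericytes was 83.0% of that in astrocytes. The pericyte list (8 genes such as Pdgfrb, Higd1b and Cd248) summed to 10712 to 10906 in pericytes and 172 to 192 in astrocytes. In Acta2 cells the smooth muscle list (8 genes) reached 6652 to 9545 with 7 of 8 detected and Cnn1 at 0, against 2159 to 2232 in pericytes. These cells also held 2874 to 7556 of the pericyte list, and at 10, 5 and 7 cells per library they were few. One of them, in library 1, had 277 Slc1a2 and Slc1a3 UMIs. Libraries shared 3 to 8 barcode sequences pairwise. Median depth per library was 9667 to 10281 UMIs in astrocytes and 4827 to 5202 in pericytes.

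The genes of the pericyte pair are neighbours and those of the astrocyte pair are not. In GRCm38 (GENCODE vM21) Kcnj8 (ENSMUSG00000030247) lies on the reverse strand at chr6:142564837-142571614, and Abcc9 (ENSMUSG00000030249) follows 16.2 kb away at chr6:142587862-142702315 on the same strand, with no protein-coding gene between them. Kcnj10 (chr1:172341210-172374085) and Kcnj16 (chr11:110968033-111027968) are on different chromosomes, with the rectifier genes Kcnj9 and Kcnj2 as their nearest coding neighbours on one side. The 250 bases before the RefSeq start of these 4 genes are shown because the members of each pair have the same class pattern below. The sequences are RefSeq's (GRCm38.p6), 5′ to 3′ on the gene's strand, with CG dinucleotides in capitals. They cover chr1:172340960-172341209 (Kcnj10), chr11:110967783-110968032 (Kcnj16, the most upstream of 4 annotated starts), chr6:142571615-142571864 (Kcnj8) and chr6:142702275-142702524 (Abcc9, where RefSeq's start lies within the GENCODE gene, so that the last bases of the window do too).
Kcnj10: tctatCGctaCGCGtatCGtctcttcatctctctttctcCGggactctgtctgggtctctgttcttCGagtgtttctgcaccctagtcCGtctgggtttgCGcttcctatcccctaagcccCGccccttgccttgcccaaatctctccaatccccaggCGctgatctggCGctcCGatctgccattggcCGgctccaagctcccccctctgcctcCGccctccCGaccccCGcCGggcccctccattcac
Kcnj16: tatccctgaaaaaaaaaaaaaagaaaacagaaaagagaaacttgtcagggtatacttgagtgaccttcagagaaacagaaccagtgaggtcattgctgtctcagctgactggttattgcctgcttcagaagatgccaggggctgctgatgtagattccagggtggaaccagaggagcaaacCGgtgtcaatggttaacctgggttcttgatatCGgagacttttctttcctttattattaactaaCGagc
Kcnj8: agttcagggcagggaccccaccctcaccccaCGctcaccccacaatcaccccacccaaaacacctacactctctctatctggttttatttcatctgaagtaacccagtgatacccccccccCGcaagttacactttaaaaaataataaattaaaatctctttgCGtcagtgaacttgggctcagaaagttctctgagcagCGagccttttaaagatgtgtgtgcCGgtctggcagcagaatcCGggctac
Abcc9: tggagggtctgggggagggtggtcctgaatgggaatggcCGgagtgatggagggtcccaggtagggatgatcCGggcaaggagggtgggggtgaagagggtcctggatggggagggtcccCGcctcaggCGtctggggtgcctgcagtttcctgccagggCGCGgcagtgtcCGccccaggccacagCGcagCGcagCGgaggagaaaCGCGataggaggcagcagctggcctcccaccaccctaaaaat
The partners did not resemble each other in base composition. Kcnj10 had 17 CG dinucleotides and 62.0% G+C, Kcnj16 had 3 and 42.8%, Kcnj8 had 6 and 49.2%, and Abcc9 had 12 and 66.8%, while the median of all 32851 promoters was 6 and 52.4%. Both strands were searched for TTGGCA (in 12.3% of all promoters of this length), for ACAAAG (16.5%), for TAAACA (12.03%), for GGAATG (12.6%), for TATAAA (12.4%) and for the CArG box (1.47%). The 4 windows held GGAATG once, in Abcc9 at 219 to 214 bases before the start, and none of the others.

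The inward rectifiers divided the classes. Levels are given in TMM-scaled CPM, UMIs as parts of a common library total, in libraries 1, 2 and 3. In astrocytes Kcnj10 stood at 103, 116 and 108 and in pericytes at 2.71, 0.279 and 1.31. Kcnj16 stood at 159, 173 and 154 in astrocytes and at 0.903, 0.279 and 2.10 in pericytes. The lowest astrocyte library was far above the highest pericyte library for both genes. The log2 fold change was 6.14 (SE 0.17) for Kcnj10 and 7.18 (SE 0.17) for Kcnj16. SE here and below is the fold change divided by the square root of edgeR's F statistic. It is not the spread between libraries, which was wider. In libraries 1, 2 and 3 the log2 ratios were 5.25, 8.70 and 6.36 for Kcnj10 and 7.46, 9.28 and 6.20 for Kcnj16. Kcnj8 had the opposite pattern, with 1004, 1082 and 1024 in pericytes and 0.640, 0.348 and 0.704 in astrocytes. Its partner Abcc9 had 1626, 1761 and 1584 in pericytes and 0.576, 0.826 and 0.993 in astrocytes. These were log2 differences of −10.78 (SE 0.20) and −11.02 (SE 0.34). In all, 12236 of the 13184 Kcnj8 UMIs and 19561 of the 21192 Abcc9 UMIs of the series lay in pericytes.

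The other members were also parted between the classes. The leak channel genes were higher in astrocytes: Kcnk1 had 290, 252 and 265 there and 2.48, 1.67 and 1.05 in pericytes, a log2 fold change of 7.24 (SE 0.15). Kcnk2 had 176, 186 and 186 in astrocytes and 2.71, 8.37 and 8.65 in pericytes, at 4.84 (SE 0.12) the smallest difference among the members. The pore gene of the large-conductance channel, Kcnma1, had 236, 249 and 264 in astrocytes and 3.61, 1.67 and 1.05 in pericytes (6.82, SE 0.15). Its smooth muscle subunit Kcnmb1 lay in the other class, with 67.0, 77.5 and 72.9 in pericytes. It lies within Kcnip1 on the opposite strand, which had 278 UMIs in both classes together. In astrocytes Kcnmb1 had 1 UMI among 91428808, so that its summed level was 6759 times higher in pericytes (exact 95% counting interval 1210 to 267284, covering counting error only). The pore gene and this subunit were thus counted in different classes, and the pore gene had 26 UMIs in all pericytes. Kcnn2 had 469, 495 and 439 in astrocytes and 3.61, 0.837 and 4.19 in pericytes (7.30, SE 0.14). Kcnq3 had 234, 291 and 234 in astrocytes and 1.58, 1.39 and 2.10 in pericytes (7.21, SE 0.15).

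**Figure D1:**
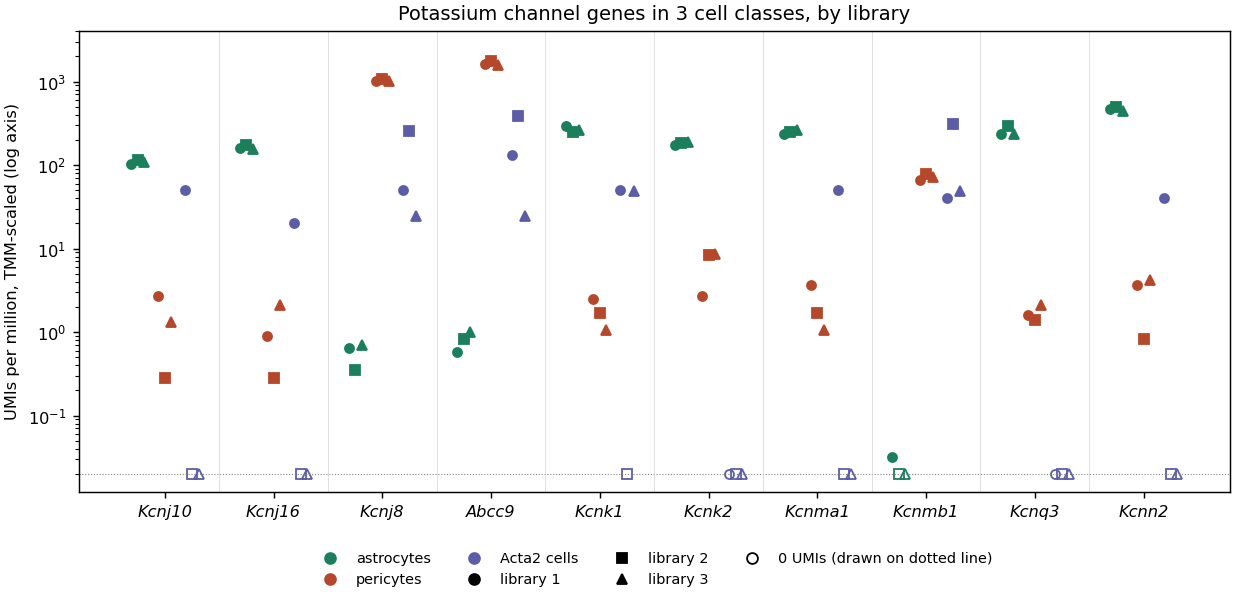
TMM-scaled CPM (log axis) of the 10 genes in astrocytes (green), pericytes (red) and Acta2 cells (blue), with one symbol per library and open symbols on the dotted line for 0 UMIs. Kcnj8, Abcc9 and Kcnmb1 are high in pericytes and the other 7 genes in astrocytes, with no overlap between the libraries of these classes.

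All 10 members passed an adjusted p of 0.05 between astrocytes and pericytes (edgeR's quasi-likelihood test on sums per library, Benjamini-Hochberg over 13086 genes), 7 higher in astrocytes and 3 in pericytes, and the largest adjusted p among them was 1.34e-225. The members were chosen as genes known from these cells, and with earlier results of these data known. That all 10 were called is therefore not independent evidence. Calls were common, with 42.7% of all genes tested higher in astrocytes and 38.4% higher in pericytes, and the median log2 fold change of all genes was 0.06. With RLE scaling that median moved up by 0.28 and the calls split into 7014 higher in astrocytes and 3845 higher in pericytes, where TMM gave 5592 and 5021. The members' directions were the same under both. Replicates are libraries that pool mice, and library is a block. The spread between pools was estimated in a single fit over the sums of all 3 classes, Acta2 cells included, with information shared between genes. Adjusted p-values this small thus do not measure how a member's own class difference varied over 3 pools.

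Per cell, nearly every pericyte had a UMI of its pair, while single astrocytes often had none of theirs. The share of cells with a UMI at a fixed depth depends on level, and the levels differed. Kcnj8 averaged 1037 and Abcc9 1657 TMM-scaled CPM in pericytes, against 109 for Kcnj10 and 162 for Kcnj16 in astrocytes. Whether astrocytes without a UMI lack the transcript was not tested. With every cell thinned to 3000 UMIs, Abcc9 was found in 95.3 ± 1.19% of pericytes (SD, n = 3 libraries) and 0.185 ± 0.0820% of astrocytes, and Kcnj8 in 88.0 ± 1.80% and 0.151 ± 0.0624%. At that depth 23.3 ± 0.211% of astrocytes had a Kcnj10 UMI, as had 0.362 ± 0.237% of pericytes, and for Kcnj16 the shares were 32.5 ± 0.285% and 0.201 ± 0.347%. Kcnmb1 was found in 18.4 ± 2.41% of pericytes, and Kcnn2 in 64.5 ± 1.98% of astrocytes. At least 1 of the pair Kcnj8 and Abcc9 was seen in 99.3%, 99.5% and 98.3% of pericytes in libraries 1, 2 and 3, and both in 87.0%, 83.8% and 82.0%. Kcnj10 was seen in 25.5%, 24.6% and 25.9% of astrocytes with a Kcnj16 UMI and in 21.9%, 22.8% and 22.4% of those without. The share was higher beside the partner in each of the 3 libraries, from 24.6% against 22.8% to 25.5% against 21.9%. This was not particular to the rectifier pair. Kcnk1 was seen in 49.4%, 46.3% and 48.2% of astrocytes with a Kcnk2 UMI and in 48.3%, 42.1% and 44.9% of those without. For Kcnma1 the shares were 42.1%, 42.1% and 46.5% with a Kcnq3 UMI and 35.5%, 36.3% and 37.9% without. For Kcnj8 and Abcc9 the cells without Abcc9 numbered only 28, 30 and 39, with Kcnj8 in 78.6%, 90.0% and 71.8% of them and in 90.2%, 88.1% and 87.1% of the others. Kcnq3 was uneven: before thinning, 49.9% of astrocytes had 0 UMIs of it and the highest cell had 61.

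The residual levels in the other class were set beside those of marker genes. In pericytes, 6 of the 7 astrocyte members were at 0.757% (Kcnn2) to 1.68% (Kcnj10) of their level in astrocytes. The astrocyte markers Slc4a4, Sox9, Gja1, Aqp4, Gjb6, Aldoc and S100b were at 0.811% to 1.32%, and Ndrg2 at 12.3%. Kcnk2 was above the other members and below Ndrg2, at 4.16% (exact 95% counting interval 3.27 to 5.22%), from 1.83% in library 1 to 5.43% and 5.55% in libraries 2 and 3. Kcnk2 overlaps the non-coding genes 2900042K21Rik on its own strand and A430027H14Rik on the other, with 65 and 600 UMIs in both classes together. Whether this overlap bears on its 75 pericyte UMIs was not tested. In astrocytes Kcnj8 was at 0.0464% and Abcc9 at 0.0394% of the pericyte level. The mural genes Anpep, Higd1b, Ndufa4l2 and Cd248 were at 0.0499% to 0.0644%, Cspg4 at 0.375%, Atp13a5 at 1.46%, and Pdgfrb and Notch3 at 4.11% and 3.86%. The source of these residual UMIs was not tested.

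**Figure D2:**
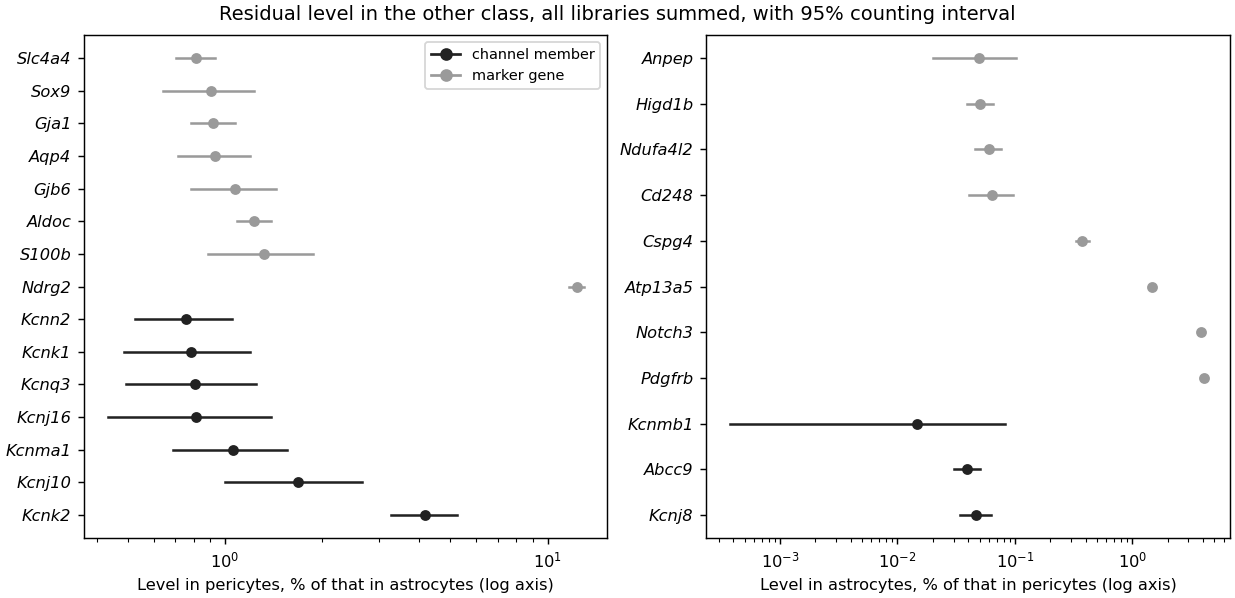
Level in the class where a gene is low as a percentage of its level in the other class (log axes), all libraries summed, with 95% counting intervals, for members (black) and marker genes (grey). By point value, Kcnn2, Kcnk1 and Kcnq3 lie just left of all astrocyte markers drawn, and Kcnj10 and Kcnk2 right of all but Ndrg2. Kcnj8, Abcc9 and Kcnmb1 lie left of all pericyte markers. Atp1b2 at 83.0% and Gfap at 0 UMIs are not drawn.

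Cells close to the class limits had the same directions, with smaller differences for Kcnj10, Kcnj8 and Abcc9. In the 411 astrocytes with 20 to 29 UMIs of Slc1a2 and Slc1a3, Kcnj10 was at 81.0 CPM and Kcnj8 at 3.68, and in the 919 barcodes just outside, with 10 to 19 such UMIs, at 69.3 and 12.2. Abcc9 was at 2.76 in these astrocytes and at 16.9 just outside. In the 34 pericytes with 10 to 14 UMIs of Vtn and Rgs5, Abcc9 was at 1140 and Kcnj8 at 204, and in the 54 cells just outside, with 5 to 9 such UMIs, at 1286 and 213. The pericytes nearest the limit thus held less Kcnj8 and Abcc9 than the class as a whole. Kcnj10 was at 36.0 CPM in them and at 23.7 in the cells just outside, above the class as a whole, but from 3 UMIs each. Barcodes in no class had a median of 761 UMIs and held 2.39% to 7.27% of each member's UMIs.

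By likeness of level over the 9 sums of library and class, each pericyte gene was among the 3 genes closest to its partner. For Kcnj8 these were Anpep, Abcc9 and Ddit4l, and for Abcc9 they were Mylip, Arhgap42 and Kcnj8, with r = 0.997 between the pair. Kcnj10 was closest to Gm4491, Gldc and Gm11149, and Kcnj16 to Fam181b, S100a16 and Gm40578. These Pearson correlations of log2 levels describe 9 points that share 3 libraries and fall in 3 classes, and of 5566 genes compared 15 to 61 exceeded 0.99 for each of the 4.

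Acta2 cells held less of the pericyte pair. Kcnj8 was at 50.7, 258 and 24.3 CPM in libraries 1, 2 and 3, from 5, 10 and 2 UMIs, and Abcc9 at 132, 387 and 24.3, from 13, 15 and 2 UMIs. Every Acta2 library was below every pericyte library for both genes. The log2 fold change against pericytes was −3.72 (SE 0.34, adjusted p = 1.32e-25) for Kcnj8 and −3.54 (SE 0.37, adjusted p = 3.07e-19) for Abcc9 in edgeR's test. Kcnmb1 did not follow the pair. It had 4, 12 and 4 UMIs, levels of 40.6, 310 and 48.7, and its libraries overlapped those of pericytes. Its log2 fold change was 0.38 (SE 0.38, adjusted p = 0.642), and without library 2 it was −0.79. In all, 5 members were called, Kcnj10, Kcnk1 and Kcnma1 higher in Acta2 cells where 5.16% of all genes were, and Kcnj8 and Abcc9 higher in pericytes where 4.79% were.

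The higher calls rested on few UMIs in few cells. All 5 Kcnj10, 2 Kcnj16, 5 Kcnma1 and 4 Kcnn2 UMIs of the class, and 5 of its 9 Kcnk1 UMIs, lay in the library 1 cell with 277 Slc1a2 and Slc1a3 UMIs. Without that cell, a choice made after seeing the data, 3 members were called: Kcnj8, Abcc9 and Kcnk1. The share of all genes called in that fit is not given. Of the 4 Kcnk1 UMIs left, 3 came from a library 3 cell of 41593 UMIs with 8.58% mitochondrial UMIs and 1 from another cell. Kcnk2 and Kcnq3 had 0 UMIs among the 203502 of the class, which allows up to 14.7 CPM, so that their summed levels were at least 10.6-fold and 14.6-fold lower than in astrocytes. Against astrocytes all 10 members were called, 3 higher in Acta2 cells (11.7% of all genes were) and 7 higher in astrocytes (15.9%), with log2 fold changes of 7.07 (SE 0.89) for Kcnj8 and 7.49 (SE 0.76) for Abcc9. RLE scaling raised the median log2 fold change of all genes between Acta2 cells and pericytes by 0.15 and turned the split of calls from 675 higher and 627 lower to 777 and 480, and against astrocytes it lowered the median by 0.12.

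Within the class, cells with many Acta2 UMIs had less of the pericyte pair. The split that follows was drawn after the values were seen and was not tested. The 10 cells with 5 to 15 Acta2 UMIs had 27 to 81 Vtn UMIs each and together 10 Kcnj8 and 22 Abcc9 UMIs, or 167 and 368 CPM. The 12 cells with 17 or more had 0 to 34 Vtn UMIs and together 7 and 8, or 48.7 and 55.7 CPM. Kcnmb1 was at 100.3 and 97.4 CPM on the lower and the higher side. Kcnab1, a regulatory subunit of voltage-gated channels, had 0 UMIs on the lower side and 118 in 9 of the 12 cells on the higher side.

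**Figure D3:**
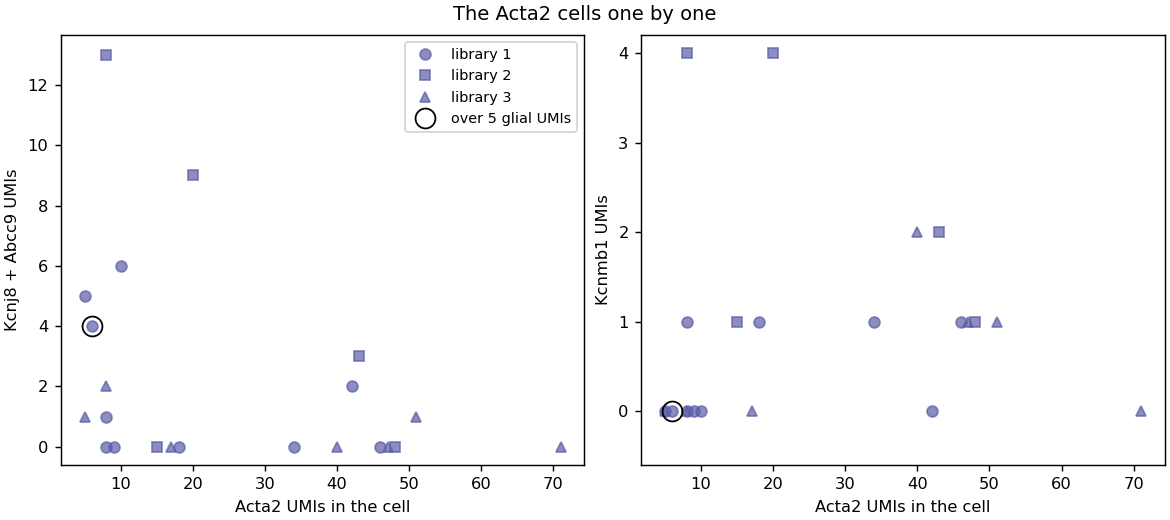
UMIs of Kcnj8 and Abcc9 together (left) and of Kcnmb1 (right) in each of the 22 Acta2 cells against its Acta2 UMIs, with symbols for libraries and a ring around the cell with over 5 UMIs of Slc1a2 and Slc1a3. Cells with 5 or more Kcnj8 and Abcc9 UMIs lie at 20 or fewer Acta2 UMIs, and Kcnmb1 UMIs occur across the range.

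The remaining potassium channel genes, 91 with a symbol beginning in Kcn or named Abcc8, were read in the same way. Of these, 33 passed the filter on low counts, 22 were called higher in astrocytes and 9 in pericytes. Of all genes tested, 42.7% were called higher in astrocytes and 38.4% in pericytes. The median log2 fold change of the 33 was 3.97 beside 0.06 for all genes. Voltage-gated pore genes, with the non-coding Kcnq1ot1 counted among them, gave 11 higher in astrocytes and 4 higher in pericytes of 15 tested. By the rule for naming (calls without overlap between libraries, largest change), the genes higher in astrocytes were Kcnc1, Kcnd2, Kcna2 and Kcnk10. Kcnd2, the pore of a rapidly inactivating channel, had 1421, 1490 and 1602 in astrocytes and 10.8, 11.2 and 12.6 in pericytes. Kcnc1 had 0 UMIs in pericytes and was at least 21.1-fold higher in astrocytes. Higher in pericytes were Kcnj12, Kcne4, Kcnk3 and Kcng1. Kcnj12, another inward rectifier, had 68.4, 63.0 and 69.2 in pericytes and 0.0960, 0.0435 and 0 in astrocytes. Kcne4, a modulatory subunit, had 71.5, 85.9 and 64.5 against 0.160, 0 and 0.124.

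In Acta2 cells, 6 of the 33 were called higher than in pericytes and 1 lower, and 4 higher and 1 lower had no overlap between libraries. Of all genes 5.16% were called higher and 4.79% lower, and 2.51% and 4.68% were so without overlap. Kcnab1 had 720, 77.5 and 535 in Acta2 cells and 5.87, 4.46 and 8.65 in pericytes, a log2 fold change of 6.33 (SE 0.28). Kcna5, a voltage-gated pore gene of vascular muscle, had 40.6, 51.6 and 24.3 against 0.903, 0.279 and 0.524. These levels rest on 8 UMIs in Acta2 cells and 7 in pericytes. Of the 8, 4 lay in cells with 5 to 15 Acta2 UMIs. Kcnk3 was also higher, with a log2 fold change of 1.87. Against astrocytes, 10 of the 33 were called higher in Acta2 cells and 10 lower, where 11.7% and 15.9% of all genes were. Kcna5, Kcnk3, Kcne4 and Kcnab1 had the largest rises among calls without overlap between libraries. The largest falls by the same rule were those of Kcnip3, Kcnc4, Kcnj3 and Kcnk10, each at 0 UMIs in Acta2 cells. Kcnip3 was at least 6.25-fold lower, and the astrocyte levels of the other 3, 14.4 to 16.6 CPM over the class, were near the 14.7 that a count of 0 allows in Acta2 cells.

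Astrocytes differed among themselves along Agt, the gene of angiotensinogen, which is known to vary between astrocytes of different brain regions. There were 2813 astrocytes with 0 Agt UMIs, 2708 with 1 or 2 and 3236 with 3 or more, with median depths of 8936, 10186 and 10306.5 UMIs. In unscaled CPM, Kcnj10 was at 70.0, 74.7 and 79.1 in the 3 libraries of Agt-zero astrocytes, and at 108, 119 and 112 in Agt-high ones. The groups did not overlap, and cells with 1 or 2 Agt UMIs lay between, at 84.6, 89.3 and 81.3. Kcnj16 was at 116, 110 and 97.8 in Agt-zero and 155, 162 and 159 in Agt-high astrocytes. Both rectifiers rose together, by 0.62 (SE 0.07, adjusted p = 2.40e-08) and 0.58 (SE 0.07, adjusted p = 8.50e-08) on the log2 scale in edgeR's test. Kcnk2 rose by 0.37 (SE 0.06, adjusted p = 4.81e-05), but it was not called with hashtag singlets (0.26, adjusted p = 0.0800) or with sums per mouse (0.24, adjusted p = 0.177).

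Other members went the opposite way. Kcnq3 was at 254, 325 and 264 in Agt-zero and 166, 211 and 177 in Agt-high astrocytes, and fell by 0.58 (SE 0.06, adjusted p = 2.33e-08) on the log2 scale. Each library had about the same difference, with log2 ratios of −0.58, −0.60 and −0.56. Kcnma1 was at 225, 253 and 272 in Agt-zero and 196, 194 and 208 in Agt-high astrocytes, and fell by 0.30 (SE 0.07, adjusted p = 0.000867). Without library 3 its log2 fold change of −0.26 was not called (adjusted p = 0.0884 in edgeR's test). Kcnma1 was also not called with sums per mouse. Kcnn2 had 421, 485 and 408 in Agt-zero and 385, 392 and 367 in Agt-high astrocytes. Its fall of 0.17 (SE 0.06, adjusted p = 0.0491) was just past the threshold. Without library 2, without library 3 or with sums per mouse it was not called. Kcnk1 had a log2 fold change of −0.11 (SE 0.06, 95% interval −0.23 to 0.02, adjusted p = 0.228) and overlapping libraries. Its level was highest between them, at 281, 252 and 268 in cells with 1 or 2 Agt UMIs, against 250.5, 204 and 222 at 0 and 216, 190.4 and 209 at 3 or more. In all, 6 of the 7 members tested were called, 3 higher in Agt-high astrocytes, where 12.7% of all genes were, and 3 higher in Agt-zero astrocytes, where 13.8% were. Kcnj8, Abcc9 and Kcnmb1 did not pass the filter on low counts.

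Markers of other cells moved along with this split, in both directions. The neuron list (8 genes) summed to 19.6 to 34.1 CPM in Agt-zero and 9.31 to 10.5 in Agt-high astrocytes, and the progenitor and ependymal list (6 genes) to 164 to 246 and 14.3 to 19.7. The astrocyte list was at 7424 to 7867 and 9714 to 10106. Higher in Agt-high astrocytes too was the microglia and macrophage list, at 35.5 to 38.1 in Agt-zero and 48.6 to 50.7 in Agt-high ones. So was the oligodendrocyte list, at 30.8 to 32.4 and 37.3 to 40.4. The pericyte, smooth muscle, endothelial and fibroblast lists overlapped. Among astrocytes without any UMI of the neuron or progenitor lists, a choice added after seeing the data, all 7 tested members were called. Kcnj10, Kcnj16 and Kcnk2 were then higher by 0.58, 0.47 and 0.21, and Kcnq3, Kcnma1, Kcnn2 and Kcnk1 were lower, at −0.71, −0.44, −0.32 and −0.23. With every cell thinned to 3000 UMIs all 7 were called as well. In the main fit 12.7% of all genes were called higher in Agt-high and 13.8% higher in Agt-zero astrocytes. The shares of all genes in these other settings are not given, so the counts of 7 are not a result about the members alone. Kcnma1 and Kcnq3 stood on the study's own list for an astrocyte cluster, chosen on these samples, so their direction is not independent of it.

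**Figure D4:**
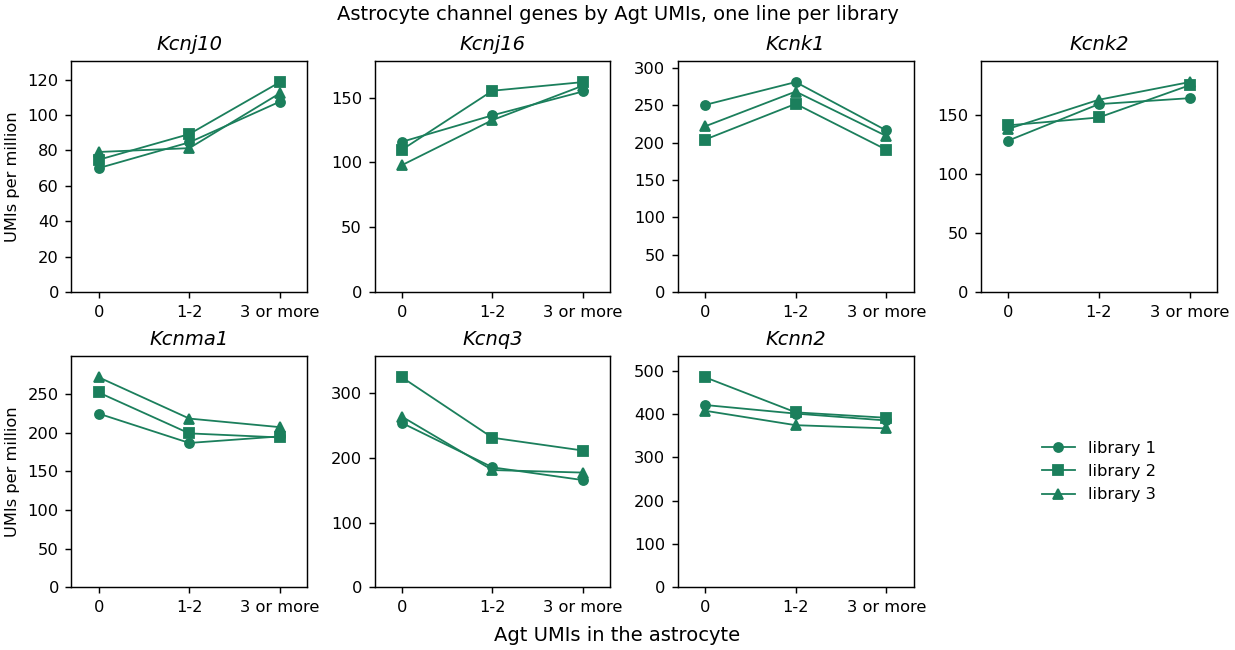
CPM of 7 astrocyte genes in cells with 0, 1 or 2, and 3 or more Agt UMIs, with one line per library and axes from 0. Kcnj10, Kcnj16 and Kcnk2 are higher at 3 or more than at 0 in each library, Kcnq3, Kcnma1 and Kcnn2 lower, and Kcnk1 peaks in the middle.

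Among the other potassium channel genes 36 were tested along Agt, of which 9 rose, 8 fell and 19 were not called, with a median log2 fold change of −0.01 beside 0.00 for all genes, of which 12.7% rose and 13.8% fell. The auxiliary subunits had 4 higher and none lower of 6 tested, among them Kcnip1 (0.80) and Kcnab1 (0.76). Kcnt1, a sodium-activated channel gene, rose by 0.73. The falls were larger. In TMM-scaled CPM, Kcnh7 had 40.1, 28.8 and 32.7 in Agt-zero and 4.90, 4.35 and 4.23 in Agt-high astrocytes, a log2 fold change of −2.91 (SE 0.12). Kcnb2 was at 2.14, 1.01 and 12.3 in Agt-zero and 0.389, 0.0887 and 0.346 in Agt-high astrocytes, a log2 fold change of −4.03 (SE 0.42), with one value, that of library 3 in Agt-zero astrocytes, far above the others. Kcnt2 and Kcnq5 fell by 3.15 and 1.99. The other genes were not reread among astrocytes without UMIs of the neuron and progenitor lists. Whether these falls go with those lists was not tested.

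The behavioural groups were compared over mice, after cells had been assigned to mice by hashtag. The tags were weak on astrocytes, where the most abundant tag had a median of 4 UMIs against 18 in pericytes. By their tags, 2376 astrocytes and 1426 pericytes were called singlets. Of these, only 1565 and 916 could be given to a listed mouse, 46 to 251 and 31 to 136 per mouse. The other singlets carried tags with no mouse listed for their library. No member passed an adjusted p of 0.05 in edgeR's test in any of the 12 comparisons. In astrocytes 9 of 42 member tests had an unadjusted p below 0.05 and the smallest adjusted p was 0.794. In pericytes 4 of 18 did and the smallest was 0.0562. In astrocytes 0.0104% of all genes were called in FR against NoFC and 0.0% in the other 5 comparisons, with 291 to 564 of 9625 genes at an unadjusted p below 0.05 by edgeR (3.02% to 5.86%) and 122 to 322 by DESeq2. In pericytes 1.12% were called in NoFR against NoFC, 0.553% in NoFR against FC, 0.0838% in FR against NoFC, 0.067% in FR against NoFR and 0.0% in FC against NoFC and FR against FC, with 240 to 522 of 5968 genes at an unadjusted p below 0.05 by edgeR (4.02% to 8.75%) and 93 to 297 by DESeq2. Groups were separate, without overlapping mice, in 2 of the 42 astrocyte tests of members and 1 of the 18 in pericytes, and over all genes in 2.62% and 3.73% of tests. The comparisons share mice and are not independent.

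Abcc9 in pericytes came nearest to the threshold. The NoFC mice had 1688, 1355, 1716 and 2256 TMM-scaled CPM of it and the FC mice 1917, 1609, 1901 and 2140. The NoFR mice had 1244, 1480, 1541 and 1324, and the FR mice 1662, 1885, 1716 and 1447. Every NoFR mouse lay below every FC mouse (4.57% of all genes had no overlap in that comparison), whereas NoFR overlapped NoFC and FR. The log2 fold change of NoFR against FC was −0.46 (SE 0.12, adjusted p = 0.0562), and of NoFR against NoFC −0.34 (SE 0.11, adjusted p = 0.144). In library 1, which held mice of both groups, NoFR had 1244 and 1480 and FC had 1609 and 1917. Library 2 held FC without NoFR and library 3 NoFR without FC. The call turned on the processing: the adjusted p in NoFR against FC was 0.00284 with no filter on low counts and 0.0281 without FC mouse 2. Other alternatives went the opposite way, and the highest adjusted p there (edgeR or DESeq2) was 0.2496. With 1 mouse left out, the log2 fold change of NoFR against NoFC ran from −0.419 to −0.0984, and that of NoFR against FC from −0.534 to −0.411. Kcnj8 averaged 1101 ± 173, 1167 ± 127, 975 ± 116 and 1046 ± 95.5 over NoFC, FC, NoFR and FR mice (SD, n = 4 each), and Kcnmb1 had 86.4 ± 28.1, 65.9 ± 7.22, 80.4 ± 16.1 and 76.1 ± 23.2, all overlapping.

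In astrocytes Kcnma1 averaged 261 ± 23.6, 211 ± 9.75, 228 ± 32.1 and 205 ± 25.5 over the mice of NoFC, FC, NoFR and FR. Every FC mouse, at 203 to 224, was below every NoFC mouse, at 229 to 283, with a log2 difference of −0.26 (SE 0.12, adjusted p = 0.999 in edgeR's test) that turned to 0.0394 with hashtags called at the lower quantile of 0.95. The difference of FR from NoFC was −0.36 on the log2 scale (SE 0.12, adjusted p = 1.00 in edgeR's test), and −0.03 at that quantile. Kcnq3 had 260 ± 52.7, 247 ± 84.9, 228 ± 50.5 and 182 ± 19.5, and Kcnn2 428 ± 29.9, 466 ± 33.6, 412 ± 41.0 and 367 ± 48.7 in the same order. Both means were lowest in FR. For Kcnn2 the highest FR mouse (436) lay just below the lowest FC mouse (438), with a log2 difference of −0.28 (SE 0.10, adjusted p = 1.00 in edgeR's test), and for Kcnq3 the mice of all groups overlapped. The rectifier Kcnj10 had 90.7 ± 12.2, 95.3 ± 9.47, 97.2 ± 7.29 and 86.6 ± 18.6, and Kcnj16 had 125 ± 30.6, 140 ± 16.0, 149 ± 10.1 and 154 ± 23.2. Of the other potassium channel genes, 15 in astrocytes and 7 in pericytes were tested and 0 were called by edgeR.

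**Figure D5:**
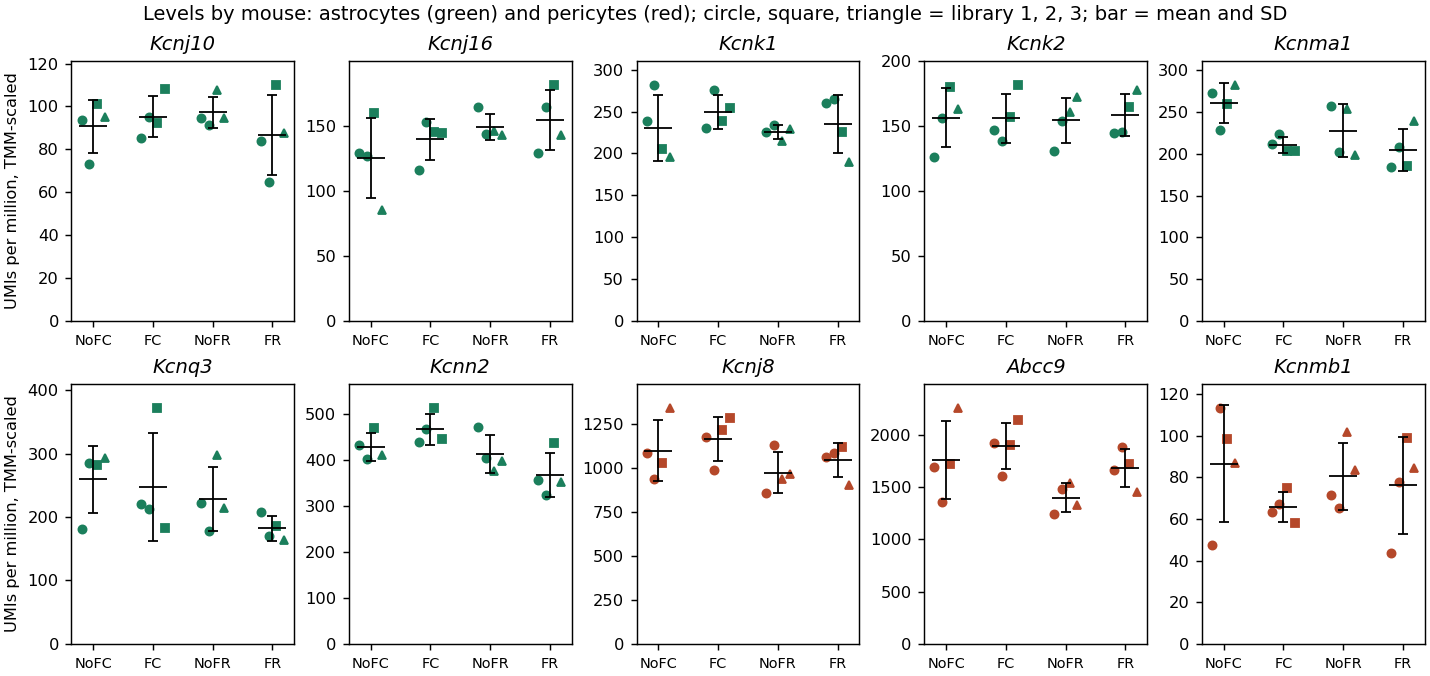
TMM-scaled CPM of members by mouse in NoFC, FC, NoFR and FR, in astrocytes (green) and pericytes (red), with symbols for libraries 1, 2 and 3, bars for mean and SD of 4 mice, and axes from 0. Most groups overlap, and the ones that do not are Abcc9 in NoFR (1244 to 1541) and FC (1609 to 2140), Kcnma1 in FC (203 to 224) and NoFC (229 to 283), and Kcnn2 in FR (322 to 436) and FC (438 to 513).

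Across the 16 mice, the pericyte pair moved together. Kcnj8 and Abcc9 had Pearson's r = 0.896 (permutation p = 2e-05, adjusted 4e-05) and Spearman's rho = 0.871 (permutation p = 4e-05, adjusted 8e-05), both two-sided. Without the 2 mice farthest from the median of Kcnj8, r was 0.823 (n = 14), within the 8 mice of library 1 it was 0.818, and after subtraction of group means it was 0.873. Kcnj10 and Kcnj16 in astrocytes had r = 0.136 (permutation p = 0.592, adjusted 0.592) and rho = 0.406 (permutation p = 0.120, adjusted 0.120). Without the 2 farthest mice r was 0.420, and in library 1 it was −0.05. These were the 2 relations computed, adjusted by Benjamini-Hochberg, and libraries 2 and 3 held 4 mice each, too few for a value. The levels of both genes of a pair come from the same sum of cells, and the astrocyte sums rest on the weaker tags. Counts per mouse were also lower for the astrocyte pair, at 32 to 268 UMIs of Kcnj10 and 45 to 365 of Kcnj16. Kcnj8 had 144 to 776 and Abcc9 209 to 1293.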

How the data were processed

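Sorted ACSA2-positive amygdala cells, with 16 mice listed by hashtag, were measured in 3 single-cell RNA libraries. The authors deposited UMI counts per gene and barcode, not normalized, with the hashtag counts. The submitters' processing notes name Cell Ranger 3.0 and mm10, while the matrix headers give another Cell Ranger version. Whether intronic reads were counted was not stated. The members and lists were chosen with earlier results of these data known. Beside the members, the 4 other potassium channel genes with the largest rise and fall among calls without overlapping libraries were named, and the 3 genes most like each of 4 members, among genes with at least 50 CPM. Some genes that this rule names are not reported here.

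UMIs were summed per library and class, and tested by edgeR 4.0.16 (R 4.3.3; filterByExpr, TMM, quasi-likelihood, library as a block, adjusted p of 0.05 by Benjamini-Hochberg). The main class sums used all barcodes, whether or not their tag belonged to a listed mouse. Doublets were handled by an alternative with hashtag singlets. Library numbers pair the sums because each class of a library comes from the same pool of cells. For groups, counts were summed per mouse over barcodes that held 100 or more genes, stayed under 6% of mitochondrial UMIs and which HTODemux (Seurat 5.3.0, quantile 0.99) called singlets, with at least 10 cells per mouse and library as a term. From the calls 2 hashtags were left out, having no barcode with 10 UMIs. Shares of cells used 3000 UMIs per cell, shallower cells left out. Mouse correlations used 100000 permutations. Total UMIs were 31700569 to 42350059 per library, and intervals (exact, 95%) and the limit of 3 counts for a count of 0 cover counting error only. The fits were tested on simulated data. Alternatives were DESeq2 1.42.0, RLE scaling, no filter, no block, other gates and cells, and leaving out each library or mouse.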

Additional observations from a re-analysis of the deposited data

Results flagged for a closer look

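In 2 of the 40 sets of 4 mice looked at (a member in a class and group), 1 mouse lay far from the other 3, and chance gives about 1 in 20 such sets. Kcnj16 in astrocytes of NoFR mouse 1 was at 164 TMM-scaled CPM, and the other NoFR mice were at 143 to 146, so that the gap made up 0.867 of the range. Kcnq3 in astrocytes of NoFC mouse 1 was at 181, and the other NoFC mice were at 281 to 292, a gap of 0.901 of the range. Both values came from library 1 and from 81 and 83 astrocytes.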

How the results depend on the processing

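Calls of members between astrocytes and pericytes did not change under any alternative run. Of the single-gene values over all comparisons, 413 kept their direction and side of the threshold, 12 lost a call, 10 gained one and 2 turned. Between Acta2 cells and pericytes, 5 members were called, against 2 with hashtag singlets, 2 with cells thinned to 3000 UMIs, 3 with stricter gates and 3 without the Acta2 cell rich in glial UMIs (an alternative added after seeing the data, as was that without neuron and progenitor UMIs), and 3 to 5 with 1 library left out. Kcnmb1 there turned to −0.79 without library 2, and its values with 1 library left out ran from −0.79 to 0.76. Abcc9 in Acta2 cells against astrocytes lost its call with hashtag singlets (3.21, adjusted p = 0.368 by edgeR). Along Agt, 6 members were called, 4 to 6 with 1 library left out and 3 with sums per mouse, where 637 genes were called of 5273 tested beside 3746 of 14161. The number of genes called along Agt was 1738 by DESeq2, 1184 with hashtag singlets, 1871 after thinning and 2408 without library 3. With no replicate block (the pairing by library left out), 10 members were called between astrocytes and pericytes, 4 between Acta2 cells and pericytes, 10 between Acta2 cells and astrocytes and 5 along Agt. Shares of all genes called in the Acta2 alternatives and without the block are not given. The member counts there are therefore not results about the members alone. In pericytes, where 0 members were called, Abcc9 alone was called in NoFR against NoFC with no filter (1 member), at hashtag quantile 0.95 (1 member) and without NoFC mouse 2 (adjusted p = 0.0338), a range of 0 to 1 over mice left out. It was called in NoFR against FC with no filter (1 member), without the library term (1 member), and without FC mouse 2 or NoFR mouse 2 (adjusted p = 0.0281 and 0.0378), again 0 to 1. Genes called in those comparisons numbered 67 and 33 by edgeR and 36 and 12 by DESeq2. Kcnma1 in astrocytes, FC against NoFC, turned from −0.26 to 0.0394 at quantile 0.95, both without a call. The cause of these changes was not tested. DESeq2 split the calls into 5909 higher in astrocytes and 3174 in pericytes, and into 976 higher in Acta2 cells and 370 in pericytes. Sums per mouse were not run for the Acta2 comparisons, since 7 such cells could be given to a mouse. Acta2 values rest on 22 cells and 203502 UMIs, and the mouse sums of astrocytes on 1565 of 8757 cells.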

Other observations

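Channel genes outside the members also marked single Acta2 cells. Kcnj13, an inward rectifier, had 19 UMIs in the class, all in the library 3 cell of 41593 UMIs with 8.58% mitochondrial UMIs, which also held 3 of the Kcnk1 UMIs and had 1 Vtn and 0 Rgs5 UMIs. Kcnk3, an acid-sensitive leak channel, had 21 UMIs in 8 of the 12 cells with 17 or more Acta2 UMIs and 3 UMIs in 2 of the 10 cells with fewer. These cells were picked out after their values were seen, and no test was run. Antisense genes overlap several members in the annotation, and the largest count among them was that of A330093E20Rik, opposite Kcnn2, with 3378 UMIs in astrocytes and pericytes together.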
